A study of Mus musculus with 6 samples.

Results

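The comparison described is that of RNA recovered with HuD against RNA recovered by beads carrying non-immune IgG, in mouse hippocampus. Its members were chosen by the labels and are 5 of the 6 arrays of the series. On 3 arrays the RNA came from protein-G beads with an anti-myc antibody that captured transgenic, myc-tagged HuD. On 2 arrays it came from protein-G beads with non-immune IgG. The remaining array, total RNA of the starting material (the input), is used as a reference. The strain, the age and number of the mice, the promoter that drives the transgene and the genotype behind the IgG and input samples are not given in the sources used here. Whether each array had its own animal or preparation is likewise not stated, and the p-values then reflect no more than the variation among these arrays, possibly technical.

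Elavl4 encodes HuD, an RNA-binding protein made in neurons and related to ELAV of the fly. HuD and its relatives bind AU-rich and U-rich stretches, mostly in the 3′ untranslated regions of mRNAs, where they are known to slow decay and to favour translation. In an RNA immunoprecipitation, an mRNA that the protein holds is over-represented among the recovered RNA, while IgG beads recover RNA that sticks without a specific antibody.

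Each gene was read as 1 signal per array, that of its brightest probe set (by the mean of all 6), and 9097 of 18193 named genes, those with a mean log2 signal above the median, were tested. Differences are on the scale of log2(signal + 32), where a step of 1 is a fold of 2, with the standard error after ±. A gene is said to have risen or fallen where limma's adjusted p (Benjamini-Hochberg over all tested genes) was below 0.05. The deposited signals had been scaled to a common level on each array, so a rise or fall is one within the RNA mixture of an array, and signals of different genes are not compared. The number of arrays limits the precision.

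With HuD, 1958 of the 9097 genes (21.5%) rose above IgG and 3093 (34.0%) fell below it. The median difference over all tested genes was −0.28, and it is the level against which each group's median is read. With each array centred on its 75th percentile this median was 0.035 and the split became 2536 higher and 1702 lower, so the share of higher calls depends on the scaling. Without HuD replicate 1, 1982 genes fell. Against the input array, which the same HuD arrays enter, 1428 genes (15.7%) rose and 2355 (25.9%) fell, or 927 and 1160 without HuD replicate 1. Between IgG and input only 2 genes (0.022%) rose, or 14 without IgG replicate 2, and 0 (0.0%) fell, with 309 and 332 at an unadjusted limma p below 0.05. The 2 genes, named after their values were seen, were Mid1, which encodes a ubiquitin ligase of microtubules, and the noncoding RNA Meg3. Among the 1958 genes that rose against IgG, the input signal lay below all HuD arrays for 1868 (95.4%). Among the 3093 that fell, it lay above all HuD arrays for 2944 (95.2%). The input therefore stood on the IgG side of the HuD arrays for nearly all called genes.

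Genes were grouped into 56 functional lists in 12 classes, and the share of each list that rose or fell was read against these backgrounds. The 2811 tested genes in any list had 22.4% higher and 34.7% lower, close to the 21.1% and 33.7% of the 6286 genes in none. The lists themselves lay far apart on both sides. Small counts are unsteady: of the 127 list and family counts of 3 or fewer, 53 moved by over 1.5 times when some 1 array was left out, as did 70 of the 181 larger ones.

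**Figure D1:**
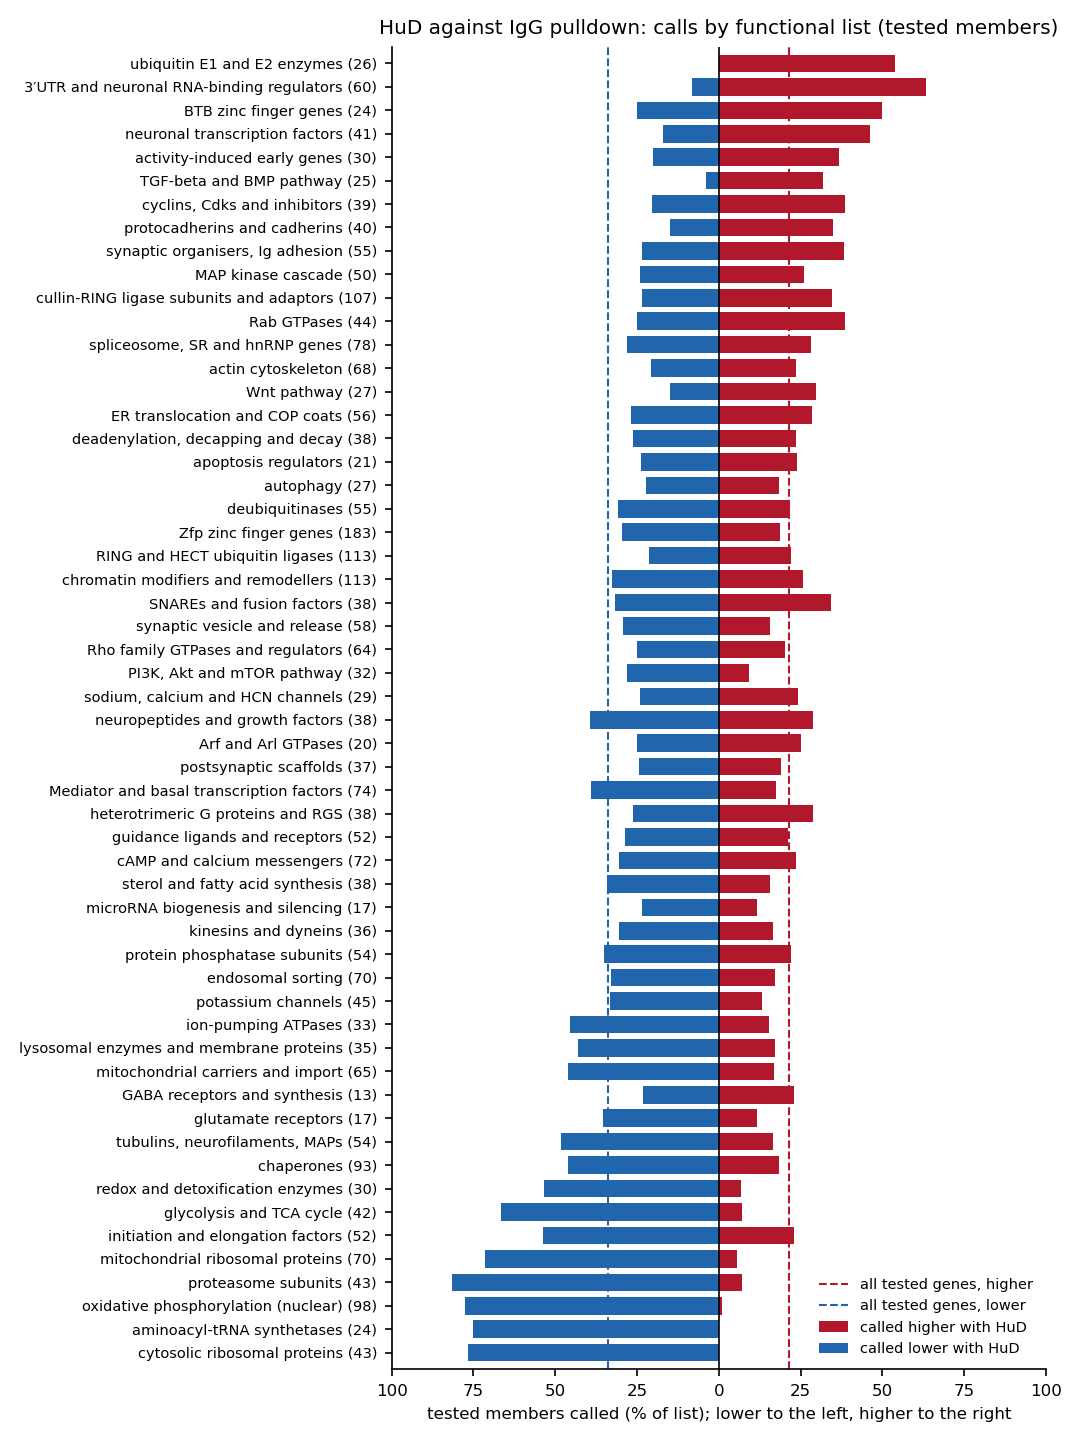
Percent of the tested members of each functional list that fell (to the left, blue) or rose (to the right, red) with HuD against IgG, with the number tested in brackets. Dashed lines mark all tested genes, 34.0% lower and 21.5% higher. Regulators that bind RNA (63.3% higher) and ubiquitin E1 and E2 enzymes (53.8%) have the longest bars on the right, and proteasome subunits (81.4% lower) the longest on the left.

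Genes for RNA-binding regulators were the group that rose most often. Elavl4 itself, the gene of the captured protein, gave signals of 2294, 2010.1 and 1689 on the HuD arrays, 766 and 642 on the IgG arrays and 597 on the input array. The HuD arrays lay above all others, and Elavl4 rose by 1.46 ± 0.25 (adjusted p = 0.00111). Its probe sets were not sorted here into those that read the transgene and those that read the native transcript. Of the 60 tested genes for proteins that bind 3′ untranslated regions or regulate neuronal RNA, 38 rose (63.3%) and 5 fell (2 or 3 without HuD replicate 1, 2 or 3 or IgG replicate 1), with a median difference of 0.95. Against the input, 35 of the 60 rose and 1 fell.

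Ptbp2, the neuronal polypyrimidine tract-binding protein that represses exons, had signals of 4987, 6016 and 6574 on the HuD arrays, 578 and 1006 on the IgG arrays and 1069.9 on the input array. It rose by 2.88 ± 0.28 (adjusted p = 0.000134). Tial1, a TIA-1 relative that binds U-rich RNA and enters stress granules, rose by 2.87 ± 0.29 (adjusted p = 0.000134), from 383 and 521 to 3100.2, 4721 and 2878. For both genes every HuD array stood well clear of the IgG arrays and of the input. Rc3h2 (roquin-2), which promotes decay of mRNAs with stem-loops, rose by 2.26 ± 0.38 (adjusted p = 0.000939). Pcbp4, a poly(C)-binding protein, went the other way, with signals of 185, 284 and 167 on the HuD arrays, 1028 and 596 on the IgG arrays and 630.3 on the input array and a difference of −1.77 ± 0.31 (adjusted p = 0.00123).

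Genes that splice and degrade RNA had shares not far from the background as lists and differed by family. Of 78 tested genes for spliceosome, SR and hnRNP proteins, 22 rose (28.2%, or 13 genes without HuD replicate 1) and 22 fell (28.2%). The shares over all tested genes were 21.5% and 34.0%. With 75th percentile centring 30 rose and 13 fell, so this balance depends on the scaling. SR proteins, which bind exon enhancers, rose in 7 of 12 genes (4 without HuD replicate 1) and fell in 1, with a median of 0.83. Srsf10 of this family rose by 2.11 ± 0.26 (adjusted p = 0.000252), from 174 and 250.1 to 998, 1033 and 988. Genes of the SF3 and U2AF proteins, which recognise the branch point and the 3′ splice site, fell in 6 of 12 and rose in 1, with a median of −0.80. Sf3b2 had signals of 858, 972 and 928 on the HuD arrays, 3143 and 2665 on the IgG arrays and 2258 on the input array and fell by 1.62 ± 0.24 (adjusted p = 0.000486). Among the Sm and snRNP proteins 2 of 9 rose and 4 fell (2 without HuD replicate 1 or IgG replicate 2), and the Sm protein gene Snrpd3 rose by 2.43 ± 0.27 (adjusted p = 0.000187). Of 38 genes for deadenylation, decapping and decay 9 rose (23.7%) and 10 fell (26.3%, or 4 genes without HuD replicate 1). Of 11 genes for the CCR4-NOT and Pan deadenylases, which shorten poly(A) tails, 5 rose (2 with the probe sets of each gene averaged) and 3 fell (1 without HuD replicate 1 or 3 or IgG replicate 1). Under 75th percentile centring 7 of these rose and 0 fell. Of 6 exosome genes 0 rose (1 without IgG replicate 2) and 3 fell (1 without HuD replicate 1 or 3).

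Genes for making proteins were mostly on the low side. Of 43 tested genes for cytosolic ribosomal proteins 33 fell (76.7%) and 0 rose, with a median of −1.36. Without IgG replicate 2, 24 fell. The small-subunit genes (14 of 20 lower, median −1.22) and the large-subunit genes (19 of 23 lower, −1.39) had like counts. The IgG arrays differed from each other in this group. Relative to the input, the median of these genes was −0.91, −1.04 and −0.89 on the HuD arrays, −0.03 on IgG replicate 1 and 0.99 on IgG replicate 2. The median difference over single HuD and IgG array pairs accordingly ran from −1.85 to −0.70, and below 0 in each pair.

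Ribosomal protein mRNAs are known for a terminal oligopyrimidine tract, a run of C and T that begins with C at the very 5′ end and couples their translation to growth signals. The first bases around the annotated start were therefore read from RefSeq (GRCm38.p6) for 37 of these 43 genes, over 10 bases before to 20 bases after the start. A run that starts with C and continues for at least 6 bases of C or T on the sense strand, found within 5 bases before to 12 after the start, was present in 17 of 37 (45.9%), against 1036 of all 7382 tested genes with a sequence (14%). The windows shown are of ribosomal protein genes that fell with and without such a run and of 1 that did not pass the test. Capitals mark the run as far as the searched stretch reaches, and in Rpl27a the C and T bases continue past it.
Rplp2, chr7:141447641-141447670, plus strand: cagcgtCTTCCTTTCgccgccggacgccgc
Rps10, chr17:27635225-27635254, minus strand: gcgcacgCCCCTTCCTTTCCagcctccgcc
Rps9, chr7:3704031-3704060, plus strand: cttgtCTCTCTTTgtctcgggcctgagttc
Rps15, chr10:80292421-80292450, plus strand: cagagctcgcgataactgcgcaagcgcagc
Rplp0, chr5:115559457-115559486, plus strand: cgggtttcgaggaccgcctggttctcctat
Rpl27a, chr7:109519185-109519214, plus strand: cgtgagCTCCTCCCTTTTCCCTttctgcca

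Ribosomal protein genes with the run had a median difference of −1.38 (13 of 17 lower) and those without it −1.34 (16 of 20 lower). Over all tested genes with a sequence the medians were −0.28 with the run and −0.29 without. The medians with and without the run were thus close in both sets, and the match is only a description of these windows. The annotated starts were not checked against the 5′ ends of the mRNAs, and runs that began off the start were also taken. The split is therefore not one of mRNAs with and without the tract, and the close medians cannot speak to it. Rplp2, an acidic stalk protein gene with the run, had signals of 2212, 2130.4 and 1964 on the HuD arrays, 6946 and 9479 on the IgG arrays and 4189 on the input array and fell by 1.93 ± 0.23 (adjusted p = 0.000232). Rps15, which has no run in its window, had signals of 1281, 1576 and 996 on the HuD arrays, 3914 and 6898 on the IgG arrays and 2653 on the input array and fell by 2.01 ± 0.30 (adjusted p = 0.000523). For both genes the HuD arrays were below the input and the IgG arrays above it. Rps9 fell by 1.70 ± 0.29 (adjusted p = 0.00106) and Rplp0 by 1.72 ± 0.35 (adjusted p = 0.00226). Rpl27a, whose window holds a long run, differed by −0.41 ± 0.48 (adjusted p = 0.491) and did not pass. Rps9, Rplp0 and Rpl27a were picked for their windows and lie outside the rule by which other genes are named.

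Genes for mitochondrial ribosomal proteins fell in 50 of 70 (71.4%, and 32 with 75th percentile centring) and rose in 4 (2 without IgG replicate 2), with a median of −1.13. Mrpl11 had signals of 335, 398 and 361 on the HuD arrays, 1356 and 2412 on the IgG arrays and 723 on the input array and fell by 2.22 ± 0.29 (adjusted p = 0.0003). Aminoacyl-tRNA synthetases, which load tRNAs with amino acids, fell in 18 of 24 with 0 higher, and the same number fell against the input. The synthetase genes Sars, Aars and Farsb, for serine, alanine and phenylalanine, fell by 1.71 ± 0.28 (adjusted p = 0.000878), 1.68 ± 0.32 (adjusted p = 0.00173) and 1.57 ± 0.25 (adjusted p = 0.00077). Aars, for example, gave 183, 279.6 and 170.1 on the HuD arrays, 999 and 536 on the IgG arrays and 831 on the input array. The HuD arrays were the lowest for all 3 genes, and the IgG arrays lay near the input.

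Initiation and elongation factors split by complex. The large scaffold eIF3, which holds the small ribosomal subunit, had 10 of 11 genes lower and 0 higher (median −1.32). The group of eIF2, eIF2B and eIF2-like genes had 7 of 9 lower and 1 higher (−1.08), with 4 lower under 75th percentile centring or without HuD replicate 1. The eIF2-like genes Eif2a and Eif2d, counted by symbol, are among the 7. Eif3i gave 1114, 1589 and 1731 on the HuD arrays, 4382 and 7232 on the IgG arrays and 3735 on the input array and fell by 1.93 ± 0.29 (adjusted p = 0.000538). The small factors eIF1 and eIF1A rose in 3 of 4 genes (median 1.23), and eIF5 and eIF6 in 3 of 5 with 2 lower. Eif4e, the cap-binding protein, gave 4054, 4756 and 4692 on the HuD arrays, 787 and 1320.3 on the IgG arrays and 1192 on the input array and rose by 2.10 ± 0.27 (adjusted p = 0.000275). Eif5a2, 1 of the genes for the hypusine-containing factor eIF5A, rose by 2.55 ± 0.24 (adjusted p = 0.000125). Eef1d, an exchange factor for the elongation factor that delivers tRNA, fell by 2.22 ± 0.26 (adjusted p = 0.000208), from 1303 and 1209.6 to 201, 286 and 251.

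**Figure D2:**
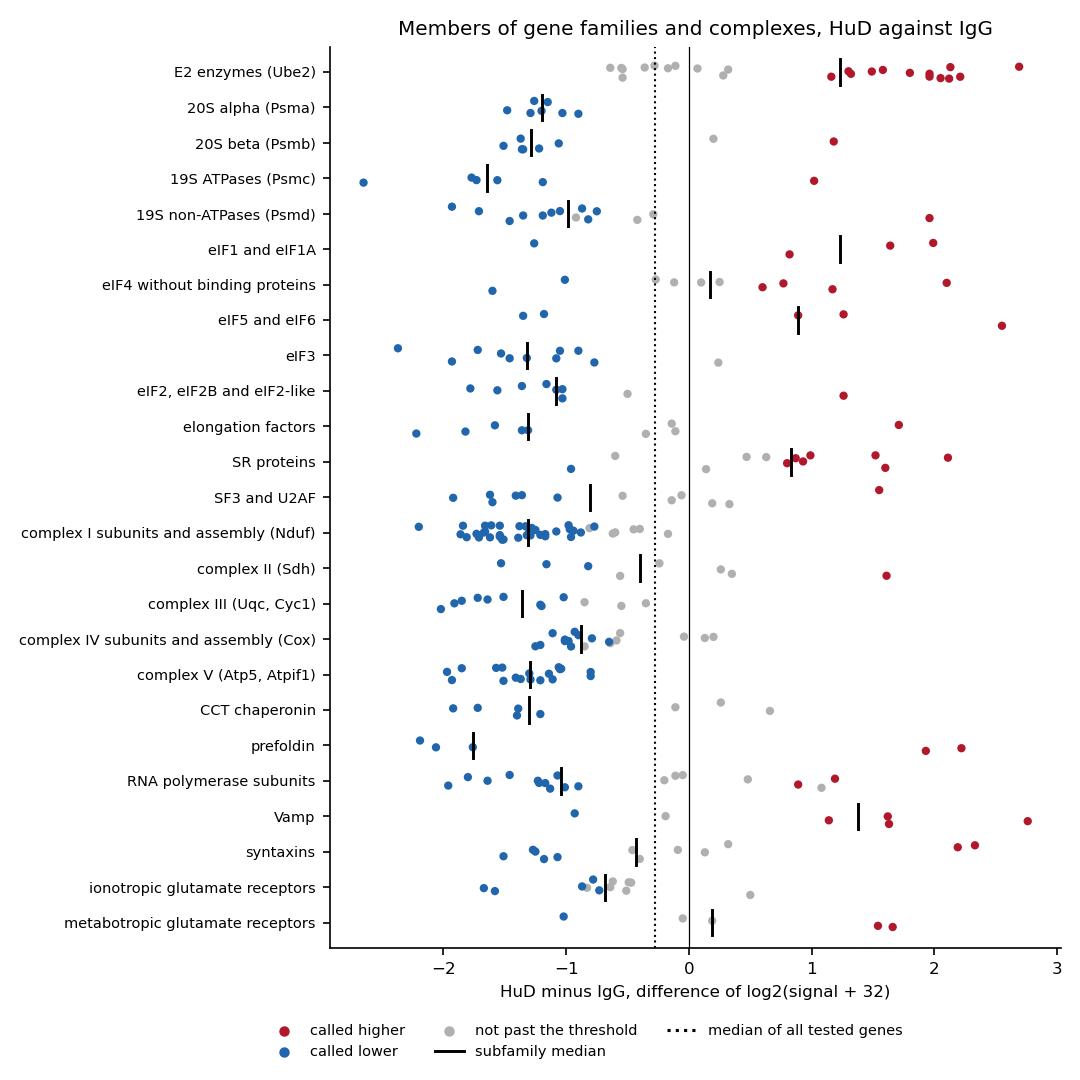
Difference between HuD and IgG, log2(signal + 32), for each tested gene of selected complexes and families. Red and blue points are genes that rose or fell, grey points did not pass, short bars are family medians and the dotted line is the median of all tested genes (−0.28). The E2 enzymes (median 1.23) and the 20S and 19S proteasome families (−0.99 to −1.64) lie on opposite sides.

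The ubiquitin system was divided between its steps. E2 enzymes receive ubiquitin and hand it to ligases, and 13 of the 24 tested Ube2 genes rose while 0 fell, with a median of 1.23. There was 1 fall when IgG replicate 1 or IgG replicate 2 was left out, and 2 with quantile normalization. Against the input, 9 of the 24 rose and 3 fell, with a median of 0.67. Ube2g1, an E2 that extends ubiquitin chains, gave 6356, 8299.5 and 6482 on the HuD arrays, 795 and 1401 on the IgG arrays and 1184 on the input array and rose by 2.69 ± 0.28 (adjusted p = 0.000146). Ube2w, an E2 that modifies protein N termini, rose by 2.13 ± 0.30 (adjusted p = 0.000432). All 3 HuD arrays were above the IgG arrays and the input for both. With the probe sets of each gene averaged, the median of the 26 E1 and E2 genes dropped from 1.19 to 0.32 and 11 still rose. Ligase genes were mixed. Cullin-RING subunits and adaptors had 37 of 107 higher and 25 lower (15 without HuD replicate 1). RING and HECT ligases had 25 of 113 higher and 24 lower, with 14 lower without HuD replicate 3 and 38 without IgG replicate 2. Siah1a, a RING ligase, gave 2312, 3677 and 2283 on the HuD arrays, 294 and 465 on the IgG arrays and 438 on the input array and rose by 2.76 ± 0.30 (adjusted p = 0.000179). Rnf111, a RING ligase of TGF-β signalling, rose by 2.35 ± 0.24 (adjusted p = 0.000147) and the scaffold gene Cul4b by 2.09 ± 0.24 (adjusted p = 0.00019).

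The proteasome, which degrades the tagged proteins, was low almost throughout. Of its 43 tested genes 35 fell (81.4%), 3 rose and 33 fell against the input as well. All 7 genes of the 20S α ring fell (median −1.20), as did 6 of 8 of the β ring (−1.28) and 5 of 6 of the 19S ATPases (−1.64). The other 19S genes, counted by the symbol Psmd and not all known as subunits, fell in 10 of 14 (−0.99). The ATPase gene Psmc3 gave 281, 375 and 181 on the HuD arrays, 1057 and 929 on the IgG arrays and 1134 on the input array and fell by 1.77 ± 0.30 (adjusted p = 0.00106). The 3 exceptions were Psmd11, a 19S lid subunit, Psmb3 and Psmc6. Psmd11 gave 5845, 7794 and 7731 on the HuD arrays, 2089 and 1532 on the IgG arrays and 2121 on the input array and rose by 1.96 ± 0.25 (adjusted p = 0.000259), while Psmb3 rose by 1.18 ± 0.28 (adjusted p = 0.00463) and Psmc6 by 1.02 ± 0.25 (adjusted p = 0.00592). Psmd11 had 3 further probe sets that also rose, whereas 1 other probe set of Psmc6 fell and the averaged value of Psmc6, 0.28, did not pass. With 75th percentile centring 23 of the 43 genes fell, 4 of them in the α ring, and without IgG replicate 2 also 4 of the α ring fell.

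Among transcription genes, neuronal factors and BTB zinc fingers rose in the largest shares of their lists, although the larger Zfp and chromatin lists held more of the rises by number. Of 41 tested hippocampal and neuronal transcription factors 19 rose (46.3%) and 7 fell, with a median of 0.56. Sox4, a factor of young neurons, gave 2496, 2395 and 2229 on the HuD arrays, 364 and 307 on the IgG arrays and 410.3 on the input array and rose by 2.71 ± 0.24 (adjusted p = 0.000125). Pou3f1, a POU factor, rose by 2.62 ± 0.24 (adjusted p = 0.000125) and Tbr1, a T-box factor of glutamatergic neurons, by 2.17 ± 0.26 (adjusted p = 0.00025). All 3 HuD arrays were above all others for each of these genes. BTB zinc finger genes, most of them repressors, rose in 12 of 24 and fell in 6, with a median of 0.70 against IgG and 1.01 against the input. Zbtb1, which acts in DNA repair and lymphoid development, gave 561, 565 and 680 on the HuD arrays, 35.4 and 79.1 on the IgG arrays and 66.9 on the input array and rose by 2.87 ± 0.28 (adjusted p = 0.000134). The much larger family of Zfp genes had 34 of 183 higher and 54 lower, shares below both backgrounds, and 26 lower without HuD replicate 1.

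Of 113 tested chromatin genes 29 rose and 37 fell (18 without HuD replicate 1, 21 without IgG replicate 1), but only 10 rose with the probe sets of each gene averaged. Crebbp, a histone acetyltransferase and partner of CREB, rose by 2.27 ± 0.24 (adjusted p = 0.000147), from 748 and 720 to 3468, 4123 and 3422. Smarca4, the BRG1 motor of the SWI/SNF remodeller, fell by 1.86 ± 0.38 (adjusted p = 0.00257), from 1327 and 451 to 197, 224 and 159. RNA polymerase subunit genes fell in 11 of 18 and rose in 2 (1 without any 1 of the HuD replicates or IgG replicate 1, 4 without IgG replicate 2), with a median of −1.04, while TFIID genes rose in 5 of 13 (2 without HuD replicate 1 or 3) and fell in 3. Activity-induced early genes rose in 11 of 30 and fell in 6 (3 without HuD replicate 3). Fos, the best-known of them, rose by 1.52 ± 0.24 (adjusted p = 0.000706).

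Membrane trafficking genes were near the background as a class (69 of 264 higher and 77 lower) and divided by family. The vesicle SNARE family Vamp rose in 4 of 6 genes (Vamp2, Vamp3, Vamp4 and Vamp7) and fell in Vamp8, whereas syntaxins, the partner SNAREs on target membranes, rose in 2 of 12 and fell in 5. Vamp7, a SNARE of late endosomes and growing neurites, gave 3748, 4403 and 3761 on the HuD arrays, 307 and 998 on the IgG arrays and 577 on the input array and rose by 2.76 ± 0.39 (adjusted p = 0.000418). Stx7, an endosomal syntaxin, rose by 2.33 ± 0.24 (adjusted p = 0.000146). In both the 3 HuD arrays lay close together and above the rest. Rab GTPases, which label compartments, rose in 17 of 44 (38.6%) and fell in 11, or 4 without HuD replicate 1 and 7 without HuD replicate 3 or IgG replicate 2. Rab33b of the Golgi rose by 2.41 ± 0.27 (adjusted p = 0.000181) and Rab11a of recycling endosomes by 2.30 ± 0.27 (adjusted p = 0.000213), although the Rab11a probe set brightest on the input, with 0.64, did not pass. Sec23a, a COPII coat protein for exit from the endoplasmic reticulum, gave 6018, 9419 and 7739.7 on the HuD arrays, 948 and 1326 on the IgG arrays and 1249.7 on the input array and rose by 2.73 ± 0.27 (adjusted p = 0.000134). The Sec genes, counted by symbol and not all of this coat, rose in 7 of 21 (4 with probe sets averaged). They fell in 4 (2 without HuD replicate 1 or 2). The COPI coatomer, which runs the return route, fell in 4 of 7 genes and rose in 1 (0 without HuD replicate 1, 2 without IgG replicate 1). Vps genes fell in 14 of 31 (7 with 75th percentile centring, 9 without HuD replicate 1 or 3) and rose in 3 (Vps13c, Vps26a and Vps72), of which Vps72 belongs to a chromatin remodeller despite its symbol. Vps26a, a retromer subunit, rose by 2.09 ± 0.29 (adjusted p = 0.000372).

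Among the signalling lists the TGF-β and BMP pathway had the highest median, with 8 of 25 higher (13 with 75th percentile centring, 5 without HuD replicate 1 or 3), 1 lower and a value of 0.48. Its receptor genes rose in 4 of 10 (Acvr1, Acvr1b, Bmpr1a and Bmpr2) and fell in 0. Smad1, a transducer of BMP signals, gave 2609, 4199.6 and 3965 on the HuD arrays, 647 and 750.3 on the IgG arrays and 424 on the input array and rose by 2.28 ± 0.27 (adjusted p = 0.000235). The HuD arrays lay above both IgG arrays, and the input was the lowest of the 6. Genes for G protein subunits rose in 9 of 23 and fell in 5, whereas the RGS genes, whose products end G protein signals, rose in 2 of 15 and fell in 5 (2 or 3 without any 1 of the HuD replicates or IgG replicate 1). Gnaz, an inhibitory α subunit, rose by 2.17 ± 0.27 (adjusted p = 0.000252). MAP kinase cascade genes rose in 13 of 50 (7 without HuD replicate 1) and fell in 12, and Mapk8, which encodes the kinase JNK1, rose by 2.02 ± 0.26 (adjusted p = 0.000275). Csnk1e, a casein kinase of the circadian clock, rose by 2.11 ± 0.36 (adjusted p = 0.000989). The PI3K, Akt and mTOR genes had 3 of 32 higher and 9 lower (5 without HuD replicate 1 or 3).

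Channels and receptors had no common direction. Potassium channel genes rose in 6 of 45 (13.3%) and fell in 15 (33.3%), and with 75th percentile centring 5 fell. The falls numbered 6, 9 and 8 without HuD replicate 1, HuD replicate 2 and IgG replicate 1. Kcnip3, a calcium sensor that binds potassium channels and DNA, gave 7.5, 14.5 and 9.1 on the HuD arrays, 132 and 123 on the IgG arrays and 355 on the input array. Its signal was highest on the input and lowest on the HuD arrays, and it fell by 1.92 ± 0.23 (adjusted p = 0.000235) against IgG. All its HuD signals lie below the added 32, so the gene passed the filter on mean signal through the other arrays and the size of its fall is set in part by that constant. Voltage-gated sodium channel genes rose in 3 of 7 and fell in 0. Scn1a, the gene of Nav1.1, gave 2867, 3454 and 3311 on the HuD arrays, 510.2 and 806 on the IgG arrays and 564 on the input array and rose by 2.26 ± 0.27 (adjusted p = 0.000213). Ionotropic glutamate receptor genes rose in 0 of 12 and fell in 5, a count of 2 without HuD replicate 1, 3 without HuD replicate 2 or IgG replicate 1 and 8 without IgG replicate 2, whereas metabotropic ones rose in 2 of 5 and fell in 1. Grm5, which encodes mGluR5, rose by 1.66 ± 0.25 (adjusted p = 0.000599), from 923 and 682 to 2478, 2951 and 2353. Synaptic vesicle genes rose in 9 of 58 and fell in 17, and postsynaptic scaffolds rose in 7 of 37 and fell in 9 (5 without IgG replicate 1, 15 without IgG replicate 2). Neuropeptide and growth factor genes rose in 11 of 38 and fell in 15. Nrn1, a small membrane-anchored protein that promotes neurite growth, gave 9629, 11811 and 10316 on the HuD arrays, 1548 and 2354 on the IgG arrays and 2242 on the input array and rose by 2.45 ± 0.24 (adjusted p = 0.000134). Chga, which encodes the granule protein chromogranin A, gave 146, 254 and 173 on the HuD arrays, 1305 and 613 on the IgG arrays and 566 on the input array and fell by 2.09 ± 0.34 (adjusted p = 0.000862).

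Cell adhesion and guidance genes had 46 rises and 34 falls among 147. With the probe sets of each gene averaged this balance turned, with 10 higher and 7 lower among cadherins, 7 and 16 among guidance genes and 18 and 17 among organisers. Protocadherins, cadherins and catenins rose in 14 of 40 and fell in 6, and the synaptic organisers and immunoglobulin adhesion genes rose in 21 of 55 (38.2%) and fell in 13 (23.6%, or 8 genes without HuD replicate 1). Protocadherins of both kinds, clustered (3 of 11) and other (4 of 9), had members that rose and 0 that fell. With probe sets averaged the other protocadherins had 1 higher and 1 lower, and 1 was lower with the probe set brightest on the input. Catenins, which link cadherins to actin, rose in 3 of 5 and fell in 1. Cdh7, a classical cadherin, gave 642, 672 and 705 on the HuD arrays, 86.8 and 109 on the IgG arrays and 125 on the input array and rose by 2.44 ± 0.25 (adjusted p = 0.000143). Leucine-rich repeat organisers rose in 9 of 19 and fell in 4 (1 without HuD replicate 1, 2 without IgG replicate 1), although Lrrc40 and Lrrc41 among the 9 and Lrrc42 and Lrrc45 among the 4 are counted by symbol and are not synaptic organisers. Lrrtm4, an excitatory synapse organiser, gave 1227, 1964 and 1121 on the HuD arrays, 217 and 293 on the IgG arrays and 182 on the input array and rose by 2.33 ± 0.30 (adjusted p = 0.000292). Cadm1, an immunoglobulin adhesion molecule of synapses, rose by 2.27 ± 0.24 (adjusted p = 0.00017), while its relatives Cadm3 and Cadm4 fell, of which only 1 still fell without HuD replicate 1, 2 or 3 or IgG replicate 1, or with 75th percentile centring. Guidance genes were near the background, with 11 of 52 higher and 15 lower.

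Among cytoskeletal genes, those of microtubules had more falls than rises. Tubulins, neurofilaments and microtubule-associated proteins fell in 26 of 54 (48.1%) and rose in 9, with 16 lower under 75th percentile centring and 15 without HuD replicate 1. Tubulin genes fell in 8 of 14 (5 without HuD replicate 1) and rose in 0. Tubb4b gave 214, 339 and 149 on the HuD arrays, 1260.2 and 561 on the IgG arrays and 1179 on the input array and fell by 1.78 ± 0.38 (adjusted p = 0.003), and Mapt, the gene of tau, fell by 1.62 ± 0.31 (adjusted p = 0.00167). Neither passed with the probe sets of a gene averaged, at −0.24 and −0.75. Actin cytoskeleton genes rose in 16 of 68 (9 without HuD replicate 1) and fell in 14. Cfl2, a cofilin that severs actin filaments, gave 5695, 6501 and 6024 on the HuD arrays, 719.9 and 1473 on the IgG arrays and 1374 on the input array and rose by 2.52 ± 0.29 (adjusted p = 0.000208), with the HuD arrays far above the other 3. Myosins within this list rose in 0 of 17 and fell in 8.

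Energy metabolism was low as a class, with 178 of 306 genes lower and 28 higher. Of 98 nuclear genes of oxidative phosphorylation 76 fell (77.6%) and 1 rose. Without IgG replicate 2 fewer fell (45) and 3 rose, all of complex II. Fewer also fell with 75th percentile centring (43), and against the input, where the same HuD arrays enter, 34 fell. By complex, 35 of 41 genes of complex I fell, 3 of 8 of complex II, 9 of 12 of complex III, 11 of 18 of complex IV and 18 of 18 of complex V. Genes of assembly factors, such as Ndufaf2, Sdhaf1, Uqcc2 and Cox17, are counted by symbol with their complex. Without IgG replicate 2 the counts were 3 for complex IV and 10 for complex V, and complex IV had 2 without HuD replicate 1 and 5 without HuD replicate 2. Ndufb10, a complex I subunit, gave 519.9, 662 and 538 on the HuD arrays, 1954 and 3829 on the IgG arrays and 1909 on the input array and fell by 2.20 ± 0.30 (adjusted p = 0.000394). With all arrays the gene that rose was Sdhc, a membrane anchor of complex II, by 1.61 ± 0.31 (adjusted p = 0.00185), although its signals of 611, 1043 and 728 on the HuD arrays, 176 and 304 on the IgG arrays and 579.5 on the input array put the input next to the lowest HuD array. The medians of this list relative to the input were −0.92, −1.06 and −0.72 on the HuD arrays, −0.18 on IgG replicate 1 and 0.77 on IgG replicate 2.

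Glycolysis and TCA cycle genes fell in 28 of 42 (66.7%) and rose in 3, and with 75th percentile centring 17 fell. Pfkl, a phosphofructokinase of glycolysis, gave 185, 179 and 188 on the HuD arrays, 859 and 754 on the IgG arrays and 1145 on the input array and fell by 1.96 ± 0.25 (adjusted p = 0.000272). Here the input was the highest array and the HuD arrays were almost equal. Mitochondrial inner membrane import genes of the Timm family fell in 7 of 13 (4 without HuD replicate 1 or 3) and rose in 0. The Slc25a carriers rose in 8 of 34 (5 without any 1 of the HuD replicates) and fell in 13, near the 21.5% and 34.0% of all tested genes. Samm50, which inserts outer membrane barrels, gave 666, 765 and 694 on the HuD arrays, 3176 and 3177 on the IgG arrays and 2005 on the input array and fell by 2.12 ± 0.23 (adjusted p = 0.000181). Redox and detoxification genes fell in 16 of 30 (53.3%) and rose in 2. Hmox2, the constitutive haem oxygenase, fell by 1.85 ± 0.25 (adjusted p = 0.000372), from 964 and 1197 to 251, 303 and 273.

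Protein folding genes also differed by family. Of 93 chaperone genes 43 fell (46.2%) and 17 rose, and with 75th percentile centring 27 fell. The CCT chaperonin, which folds actin and tubulin, fell in 5 of 8 genes and rose in 0, and Cct4 gave 758, 945 and 802 on the HuD arrays, 3237 and 3216 on the IgG arrays and 2436 on the input array and fell by 1.92 ± 0.24 (adjusted p = 0.000257). Prefoldin, which passes nascent actin and tubulin to CCT, was divided among its subunits. Pfdn2 gave 2306, 3641 and 1307 on the HuD arrays, 657 and 309 on the IgG arrays and 566 on the input array and rose by 2.22 ± 0.41 (adjusted p = 0.00155). Pfdn5 fell by 2.19 ± 0.33 (adjusted p = 0.000541) and Pfdn6 by 2.06 ± 0.26 (adjusted p = 0.000259), so subunits of a single complex stood at opposite ends. J proteins, the cochaperones of Hsp70, rose in 9 of 36 and fell in 12, near the 21.5% and 34.0% of all tested genes. The Hsp genes rose in 2 of 22 and fell in 11 (5 without HuD replicate 1). Lysosomal genes fell in 15 of 35 and rose in 6 (3 without HuD replicate 1), and Ctsa, a lysosomal carboxypeptidase, fell by 1.82 ± 0.28 (adjusted p = 0.000625). Atg12, a ubiquitin-like protein of autophagy, rose by 2.51 ± 0.32 (adjusted p = 0.000281) among autophagy genes of which 5 of 27 rose (3 without HuD replicate 2) and 6 fell (1, 3 and 2 without HuD replicate 1, HuD replicate 3 and IgG replicate 1). Cyclins, Cdks and their inhibitors rose in 15 of 39 (38.5%) and fell in 8, and Cdk17, a PCTAIRE kinase of differentiated neurons, rose by 2.16 ± 0.24 (adjusted p = 0.000187).

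**Figure D3:**
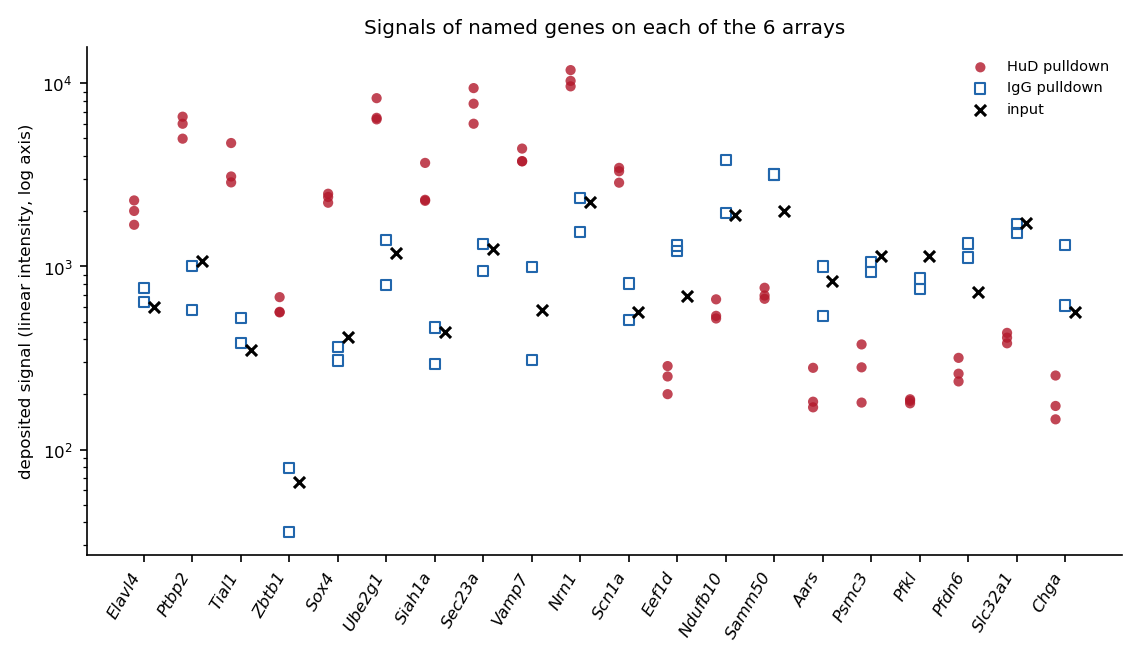
Deposited signal (linear intensity on a log axis) of 20 genes on each array, with HuD pulldowns as filled circles, IgG pulldowns as open squares and the input as crosses. For all genes shown the HuD arrays do not overlap the IgG arrays, as for Ptbp2 with 4987, 6016 and 6574 on the HuD arrays and 578 and 1006 on the IgG arrays. Apart from Elavl4, the genes shown were drawn from genes chosen for this lack of overlap. Of all 9097 tested genes, 2507 (27.6%) had all HuD arrays above all IgG arrays and 3919 (43.1%) had them all below. Signals of different genes are not on a common scale.

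The array medians show how far these groups rest on each array. For the RNA-binding regulators the median over members relative to the input was 1.03, 1.17 and 1.16 on the HuD arrays and 0.19 and 0.20 on the IgG arrays. For proteasome genes it was −1.48, −1.29 and −1.37 against −0.34 and −0.22, and for the synthetases −1.48, −1.26 and −1.43 against −0.26 and −0.37. In these 3 groups the IgG arrays lay close together, unlike in the cytosolic ribosomal and oxidative phosphorylation genes, where IgG replicate 2 stood above the input and IgG replicate 1 just below it. Over all tested genes the HuD medians were −0.31, −0.33 and −0.28 and the IgG medians −0.07 and −0.06.

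**Figure D4:**
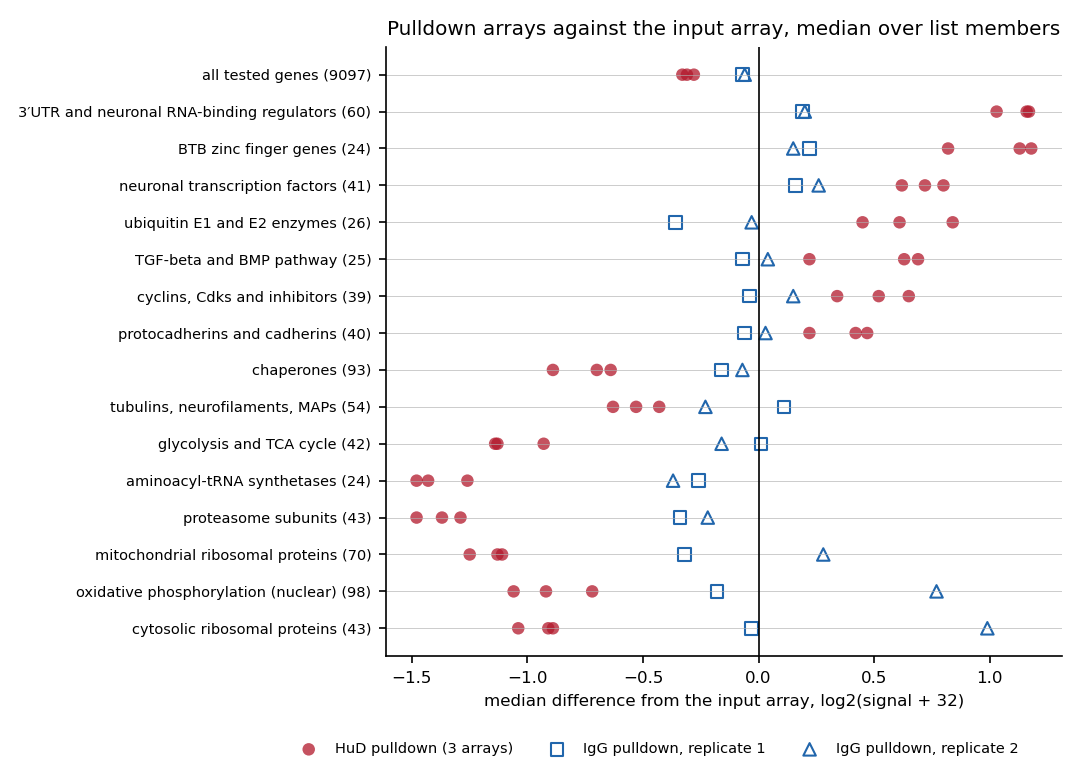
Median over the tested members of a list of the difference between each pulldown array and the input array, in log2(signal + 32). Filled circles are the 3 HuD arrays and open symbols the 2 IgG arrays. Among the lists drawn, the IgG arrays part most in cytosolic ribosomal proteins (−0.03 and 0.99) and oxidative phosphorylation (−0.18 and 0.77), and HuD arrays also part in some, such as the TGF-β and BMP pathway (0.69, 0.22 and 0.63).

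As a share of the summed signal of all genes, energy metabolism took 5.52%, 5.44% and 5.90% on the HuD arrays, 8.35% and 11.2% on the IgG arrays and 8.64% on the input. Protein synthesis genes took 2.75%, 2.89% and 2.94% with HuD, 4.31% and 6.01% with IgG and 4.21% in the input. Both classes were smallest on the 3 HuD arrays, as was that of protein folding and turnover. RNA regulation genes took 3.74%, 4.14% and 3.88% with HuD, 3.02% and 2.75% with IgG and 2.54% in the input, and ubiquitin E1 and E2 genes 0.733%, 0.770% and 0.734% against 0.368%, 0.419% and 0.500%. These 2 groups were largest with HuD. The same held for the classes of transcription, ubiquitin and proteasome, trafficking, signalling, adhesion and cell cycle, so it was not particular to them. The class of excitability and synapse genes overlapped between groups, with 3.34%, 3.36% and 3.29% against 3.44% and 2.89%.

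**Figure D5:**
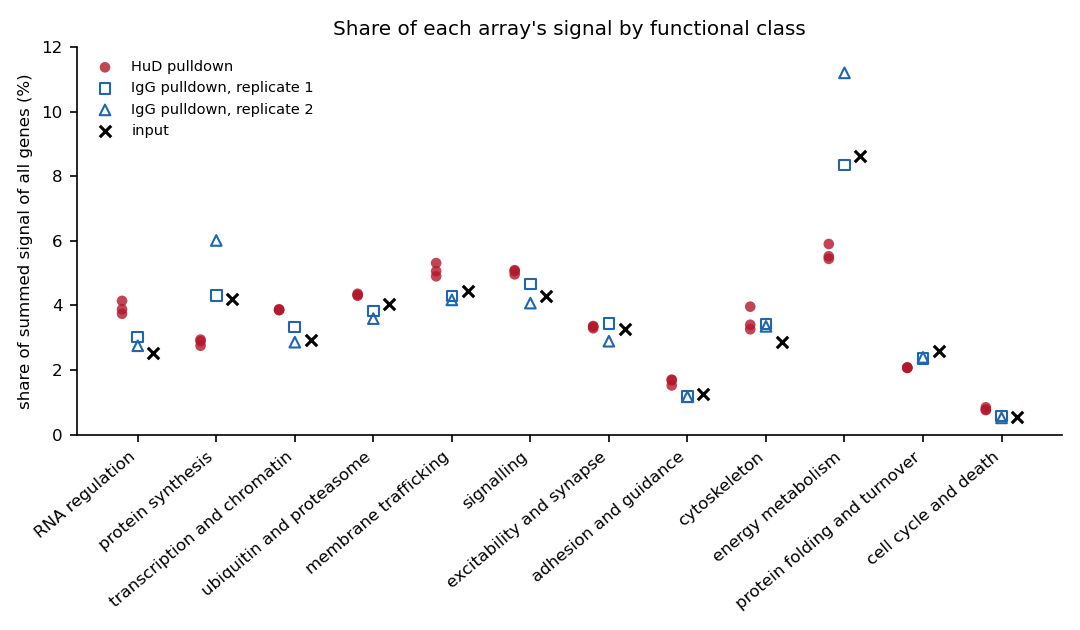
Share of the summed signal of all named genes (percent, linear axis from 0) taken by each functional class on each array. Energy metabolism takes 5.44% to 5.90% on the HuD arrays and 8.35% to 11.2% on the IgG arrays, with the input at 8.64%.

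The classes also differed in where along the ranking they lay. Of the 100 largest falls 9.0% were protein synthesis genes, and this share was 8.75% over ranks 101 to 500, 5.6% over 501 to 1000, 4.4% over 1001 to 1500 and 2.2% beyond, where such genes made up 2.08% of those tested. Energy metabolism genes went from 9.0% and 9.5% in the first of these windows to 4.71% in the last, against 3.36% of those tested. Among the rises, RNA regulation genes made up 4.0% of the first 100 and 4.59% of the last window, against 2.11% of those tested, so they were spread along the whole range of rises. They also made up 4.0% of the 100 largest falls, and 1.0% to 1.5% of the later windows of falls. Trafficking genes were 7.0% of the first 100 rises and 3.06% of the last window, against 2.90% of those tested.

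Markers of cell types were read beside these groups, and in RNA of a bulk tissue fewer cells of a type, less RNA per cell and, between pulldowns, a different recovery of the RNA cannot be told apart. Snap25, a synaptic SNARE of neurons in general, gave 11136, 16051 and 11705 on the HuD arrays, 6243 and 8139 on the IgG arrays and 7146 on the input array. Its rise did not pass without HuD replicate 2 (0.68). Of 9 tested genes in a list of hippocampal excitatory neuron markers, which also holds the general neuronal genes Snap25 and Syt1, 4 rose (Snap25, Tbr1, Neurod2 and Bcl11b), or 2 without HuD replicate 2, and 0 fell. Interneuron markers divided, with 1 of 11 higher and 5 lower. Slc32a1, the vesicular GABA transporter, gave 381, 434 and 408 on the HuD arrays, 1702 and 1524 on the IgG arrays and 1717 on the input array and fell by 1.90 ± 0.24 (adjusted p = 0.000281), but did not pass with its probe sets averaged (−0.36). Gad1, a GABA-synthesising enzyme, fell by 1.43 ± 0.25 (adjusted p = 0.0012) and Sst, the somatostatin gene, by 1.52 ± 0.34 (adjusted p = 0.00379), with Npy and Cck also lower. Pvalb, which marks basket cells, gave 2535, 4317 and 2494 on the HuD arrays, 849.5 and 1392 on the IgG arrays and 1191 on the input array and rose by 1.44 ± 0.31 (adjusted p = 0.00324). Microglia markers fell in 5 of 6 genes (2 without HuD replicate 1 or IgG replicate 2) and rose in 0, oligodendrocyte markers fell in 7 of 12 (4 without HuD replicate 3 or IgG replicate 2) and rose in 0, and astrocyte markers fell in 6 of 13 and rose in 2 (Gja1 and Sox9), or 1 without HuD replicate 2 or 3 or IgG replicate 1, where Gja1 (0.86, 0.80 and 0.47) did not pass. With 75th percentile centring, 2 microglia and 2 oligodendrocyte markers fell, and of the astrocyte markers 5 fell and 3 rose. The summed shares of the markers were 0.0196% to 0.0268% with HuD and 0.0440% to 0.0616% with IgG for microglia, and 0.237% to 0.285% and 0.412% to 0.452% for oligodendrocytes. Ttr, a choroid plexus gene, was present on all arrays with 11822, 15051 and 14450.2 on the HuD arrays, 15961 and 18336 on the IgG arrays and 8913 on the input array and did not pass. Of 3 tested markers of other brain regions 0 fell and 1 rose, namely Drd1, a dopamine receptor gene abundant in striatum, by 1.91 ± 0.28 (adjusted p = 0.000521). The part of cell type markers in the differences of the functional lists was not tested.

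The reading of a gene can depend on its probe set. Of the 1958 genes that rose, 1511 had further probe sets; for 569 at least 1 of these also rose, and for 128 at least 1 fell. Of the 3093 that fell, 1877 had further probe sets; for 787 at least 1 also fell and for 45 at least 1 rose.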

How the data were processed

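Hippocampal RNA of mouse was read on 6 Affymetrix arrays with 45101 probe sets. The deposited values are linear intensities, and the software that made them is not given in the sources used here. Without the lowest and highest 2% of probe sets the mean was the same on every array (150.0), so the deposited signals were already scaled. No detection calls were used. The 64 control probe sets were left out. A platform annotation gave 34945 probe sets 1 gene symbol, 932 several and 9160 none, and 34741 matched a RefSeq gene table by Entrez identifier, with 0 symbols changed.

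From the signals, log2(signal + 32) was computed for the brightest probe set of each gene, and limma 3.58.1 fitted group means to the 6 arrays together (trended eBayes, 3 residual and 8.4 prior degrees of freedom) in R 4.3.3, with Python 3.11.15 and pandas 2.3.3 for tables. The input group of 1 array was assumed to vary like the others. The Benjamini-Hochberg adjustment covered all 9097 tested genes, with a threshold of 0.05. The added 32 understates the fold of dim genes. The steps were tested on simulated data. Replicates are numbered in order of deposit.

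The comparison, the gene lists (defined by symbol patterns) and the families within them were chosen with earlier results of these data known. Named genes are Elavl4 and, per list, up to 3 of the largest rises and 3 of the largest falls among called members whose arrays do not overlap, without the 14 largest rises and 10 largest falls over all genes. The lack of overlap in genes named by this rule thus follows from the choice. Clone-type symbols were not named. Other members are named, outside this rule, to show how a family divides. Alternatives varied the scaling, pseudocount, filter, probe set, arrays and blocks.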

Additional observations from a re-analysis of the deposited data

How the results depend on the processing

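The overall counts and class medians that moved are given here, and the cause was not tested. Of list counts over all alternatives 1923 stayed within 1.5 times, 210 were lower and 43 higher. Of family counts 2655 stayed, 312 were lower and 93 higher. Lower genes in HuD against IgG (3093) numbered 1702 with 75th percentile centring, 1328 among the brightest genes (mean in the top 25%) and 1982 (without HuD replicate 1) to 2908 when a replicate was left out. In HuD against input, higher genes (1428) ranged from 927 to 1779 without a replicate, and lower genes (2355) were 1041 with 75th percentile centring, 1453 with no filter, 1013 among the brightest genes and 1160 to 3036 without a replicate. For IgG against input the 2 higher genes became 0 with 75th percentile or median centring, a pseudocount of 64, no filter, probe sets averaged or the replicate block, and 0 to 14 without a replicate.

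Class medians less that of all genes moved as follows. RNA regulation (0.63) was 0.51 with quantile normalization, 0.69 and 0.55 with pseudocounts of 8 and 64, 0.30 with no filter, 0.52 among the brightest genes, 0.31 with probe sets averaged, 0.71 with the title pairs as a replicate block and 0.55 to 0.71 without a replicate. Protein synthesis (−0.85) was −1.37 among the brightest genes and −0.56 averaged, energy metabolism (−0.57) −1.06 among the brightest genes. Transcription (0.24) was 0.29 quantile-normalized, −0.09 with no filter, 0.43 among the brightest genes and 0.13 averaged. Ubiquitin (0.11) was −0.04 with no filter and 0.02 averaged, and trafficking (0.13) was 0.04 quantile-normalized, −0.02 with no filter and 0.05 averaged. With no filter, signalling (0.15) was 0.01, adhesion (0.44) 0.14, folding (−0.11) −0.20, excitability (−0.02) −0.15 and cell cycle (0.53) 0.13. Cell cycle was 0.37 averaged, excitability −0.12 quantile-normalized and −0.20 among the brightest genes, and folding −0.43 among the brightest genes and −0.20 with the title pairs as a block. Without a replicate, protein synthesis ran from −1.03 to −0.56, energy metabolism from −0.73 to −0.34, excitability from −0.13 to 0.03 and folding from −0.20 to −0.08.

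Of the named genes, the sign turned with probe sets averaged for Dclk1 (−0.05), Ddx5 (−0.37), Fgf14 (−0.13), Map4 (−0.15), Daam1 (0.14) and Mrpl57 (0.44), and with the probe set brightest on the input for Kif3a (−0.78), Mrpl35 (−0.19), Rhot1 (−0.28) and Ube2v2 (−0.11). Snhg10 was −1.24 without IgG replicate 1 and 0.86 without IgG replicate 2. With the title suffix as a replicate block, HuD against IgG gave 1908 higher and 2927 lower, and with the 2 title pairs 2137 and 3274. Deviations of HuD and IgG arrays with the same suffix correlated across genes at −0.03, −0.337 and 0.395, so the labels and data do not establish a pairing. The coding length comparison was not run. Limits: the IgG group has 2 arrays that differ, the input has 1, and dim genes are compressed by the pseudocount.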

Other observations

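Long noncoding RNAs were in none of the lists, and the genes named here were picked after their values were seen. Meg3, an imprinted noncoding RNA of neuronal nuclei, gave 1831, 1844 and 2128 on the HuD arrays, 5418 and 5122 on the IgG arrays and 977 on the input array. The IgG arrays stood far above the rest and the HuD arrays still stood above the input, with a difference of −1.43 ± 0.23 (adjusted p = 0.000723) between HuD and IgG and of 2.39 between IgG and input. Malat1, an RNA of nuclear speckles, gave 556, 1024 and 242 on the HuD arrays, 5185 and 1098 on the IgG arrays and 611 on the input array, with a difference of −2.13 ± 0.61 (adjusted p = 0.0127). Miat, a nuclear RNA of neurons, differed by −1.37 ± 0.26 (adjusted p = 0.00159) and Snhg11 by −1.91 ± 0.43 (adjusted p = 0.00407), and their IgG signals exceeded the input by 2.08 and 2.14. Among the 3093 genes that fell against IgG, the input lay below all HuD arrays for 33 (1.07%), and 4 of the 3093 (Mid1, Daam1, Cfp and Meg3) rose against the input. Daam1, a formin regulator of actin, gave 2468, 3932 and 2796 on the HuD arrays, 8002 and 4688 on the IgG arrays and 1086 on the input array, but averaged over its probe sets it differed by 0.14. Without IgG replicate 1, Malat1 (−1.03) and Daam1 (−0.64) did not pass, and Daam1 (−0.88) did not without HuD replicate 1.

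Host genes of small nucleolar RNAs, whose transcripts are known to carry terminal oligopyrimidine tracts as ribosomal protein mRNAs do, were chosen in the same way. Gas5 gave 519, 477 and 666 on the HuD arrays, 1334 and 2526 on the IgG arrays and 1093 on the input array and fell by 1.69 ± 0.31 (adjusted p = 0.00142), and Snhg6 gave 561, 463 and 775 on the HuD arrays, 982 and 3509 on the IgG arrays and 891 on the input array and fell by 1.61 ± 0.44 (adjusted p = 0.01). Snhg1, Snhg8, Snhg12 and Zfas1 fell by 1.00 ± 0.37 (adjusted p = 0.0379), 1.06 ± 0.36 (adjusted p = 0.0281), 1.24 ± 0.26 (adjusted p = 0.00296) and 1.60 ± 0.33 (adjusted p = 0.00237). Snhg5 (−0.60), Snhg4 (−0.18), Snhg10 (−0.19) and Snhg18 (−0.24) did not pass. IgG replicate 2 gave the higher of the IgG signals in each of the 6 that fell, and without it Snhg1 (−0.43), Snhg6 (−0.71) and Snhg8 (−0.36) did not pass. Without HuD replicate 2, Snhg1 (−0.75), Snhg6 (−1.45) and Snhg8 (−0.96) did not pass either, nor did Snhg1 (−1.07) and Snhg8 (−1.05) without HuD replicate 1. Both also missed the threshold with 75th percentile centring (−0.69 and −0.74), with median centring (−0.85 and −0.91) and with no filter, and Snhg1 with quantile normalization (−0.96) and with probe sets averaged (−0.48).

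With the tested genes ranked by input signal and divided into 4 bins of like size, from the dimmest to the brightest, falls made up 24.2%, 37.1%, 37.4% and 37.3% and rises 18.5%, 17.6%, 23.7% and 26.3%.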
